A study of Rattus norvegicus and Mus musculus with 12 samples.

Results

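Inducible nitric oxide synthesis and the handling of its substrate arginine were followed through 10 genes, Nos2, Gch1, Ass1, Asl, Slc7a1, Slc7a2, Arg1, Arg2, Odc1 and Ddah1. They were found by gene symbol, and all 10 were present among the 19687 genes of the rat table and the 28603 genes of the mouse table. The samples were articular chondrocytes, the cells that make and maintain cartilage, taken from newborn animals, SD (Sprague-Dawley) rats or C57BL/6 mice, and used at passage 1. In the rat model (RM) and mouse model (MM) groups the cells received IL-1β, an inflammatory cytokine used to imitate osteoarthritis in culture, at 20 ng/ml for 24 h, whereas the rat control (RC) and mouse control (MC) groups received none. Each group had 3 RNA-seq libraries made from samples described as independent. Whether these came from separate animals is not stated, so the P values measure the spread between these samples. The strain labels of the mouse libraries run from C57BL/6 to C57BL/9 and cross the treatment groups, whereas the methods name C57BL/6 for all mice. A short-term monolayer culture of newborn cells with a single dose and a single time limits what the groups can stand for.

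Nitric oxide is made from arginine by nitric oxide synthases, of which the inducible enzyme, encoded by Nos2, is transcribed in response to inflammatory cytokines and is a classical product of IL-1-stimulated chondrocytes. The enzyme needs tetrahydrobiopterin, whose synthesis starts with the enzyme encoded by Gch1, and yields citrulline, which argininosuccinate synthase (Ass1) and argininosuccinate lyase (Asl) turn back into arginine. Arginine enters the cell through cationic amino acid transporters (Slc7a1, Slc7a2) and is also split by the arginases (Arg1, Arg2) into urea and ornithine, from which ornithine decarboxylase (Odc1) makes putrescine, the first polyamine. The enzyme encoded by Ddah1 breaks down asymmetric dimethylarginine, an endogenous inhibitor of nitric oxide synthases.

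Total counts were 20169272 to 25903459 per library in rat and 16841580 to 20048322 in mouse, and the limit that a count of 0 allows, taken as 3 counts, was 0.116 to 0.149 CPM (counts scaled to the library total) in rat and 0.150 to 0.178 in mouse. Levels are given as FPKM, in which the count is scaled to the length of the gene and to the depth of the library. Fold changes come from edgeR's quasi-likelihood test on counts with TMM scaling, and a gene was called higher or lower at a Benjamini-Hochberg adjusted P under 0.05 over all genes tested. The criteria of the study for differentially expressed genes (DEGs) state a fold change without its scale, which was read here as log2. This other call asks for a change of 0.85 or more on the log2 scale, P under 0.05 without adjustment and 1 FPKM or more in some library. The cells held chondrocyte markers, with summed FPKM of 11 marker genes of 5129 to 5763 in the RC group and 2411 to 2455 in the MC group. All 11 were lower in both model groups, with sums of 2023 to 2064 in the RM group and 210.5 to 224.3 in the MM group. Fibroblast markers (7 genes) were high too, with sums of 3821 to 4312 in the RC group and 2301 to 2333 in the MC group. In the RM and MM groups these sums were 2847 to 2985 and 1065 to 1074, above those of the chondrocyte markers. The share of fibroblast-like cells was not tested. All 5 genes of a check list (Il6, Cxcl1, Mmp3, Mmp13 and Ptgs2) were higher in both model groups. Among all genes tested 18.3% were higher in rat and 37.4% in mouse. The paper reports Il6, Cxcl1, Mmp3 and Mmp13 as raised in these same samples, so the list is a description and no independent test of the response.

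In rat chondrocytes 6 of the 10 genes were higher in the RM group (Nos2, Gch1, Ass1, Slc7a2, Arg1 and Ddah1), 3 were lower (Slc7a1, Arg2 and Odc1) and Asl did not pass the test. Of the 13303 rat genes tested, 18.3% were higher and 16.8% lower, 35.1% in all. In mouse chondrocytes 9 of the 10 genes were tested and all 9 were higher in the MM group (Slc7a1 by TMM but not by library size alone), beside 37.4% higher and 37.7% lower among the 14774 mouse genes tested, 75% in all. Arg1 had too few reads to be tested in mouse. Nos2 in both species, Arg1 in rat and Arg2 in mouse passed the filter on low counts only through the model group, so these counts describe the genes and are no test of the set. By the DEG criteria 4 genes were up in the RM group (Gch1, Ass1, Arg1 and Ddah1), where 4.64% of all genes were, and 0 were down, beside 3.9% of all genes. In the MM group 6 were up (Nos2, Gch1, Slc7a2, Arg2, Odc1 and Ddah1), where 12.6% of all genes were, and 0 were down, beside 13% of all genes. The libraries of the groups did not overlap in CPM scaled by TMM for 9 of 10 genes in rat, beside 47.9% of all genes, and for 9 of 9 in mouse, beside 76.5%. The median log2 fold change over the genes tested was 0.90 in rat and 2.53 in mouse, against 0.01 and -0.02 over all genes. The biological coefficient of variation, a measure of the spread between libraries of a group, was 0.106 in rat and 0.0318 in mouse. The shares called and the P values depend on this spread. Set across the species, they do not measure how broad or large each response was. In bulk RNA a gene's lower share from fewer cells of a type and less of its RNA per cell cannot be told apart.

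**Figure D1:**
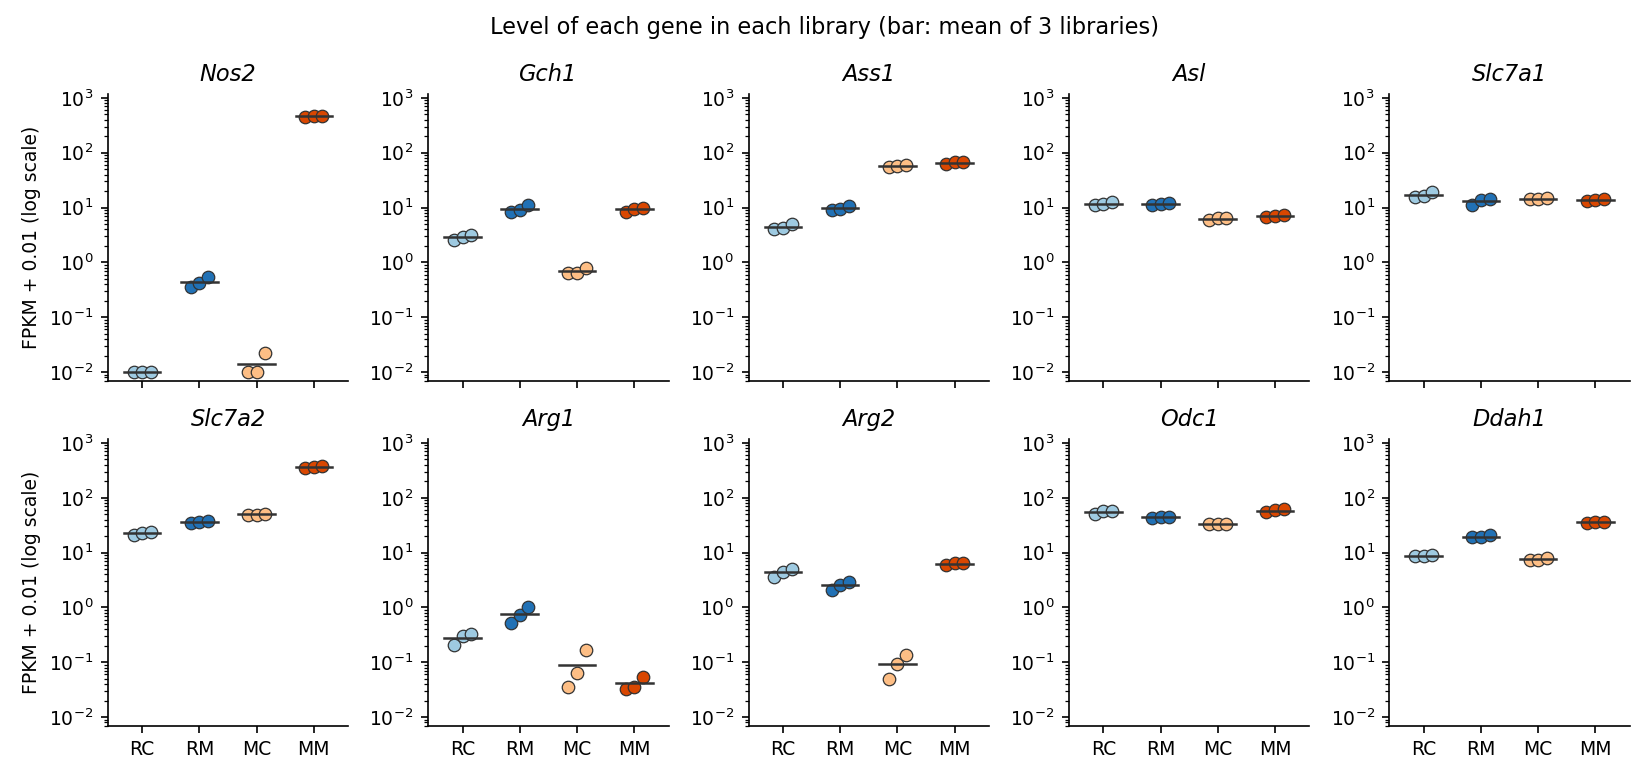
FPKM plus 0.01 of each of the 10 genes in each library on a log axis, for the RC, RM, MC and MM groups (points: libraries; bar: mean of 3 libraries). Nos2 is at 0 in the RC libraries and reaches 0.352 to 0.537 in the RM libraries, whereas in the MM libraries it reaches 444 to 473.

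Nos2, the inducible synthase, went from no or almost no reads to a measurable level in both species. In rat it had 0 counts in each of the RC libraries and 55, 61 and 86 counts in the RM libraries (FPKM 0.408, 0.352 and 0.537). All RM libraries were above all RC libraries, which stayed under the limit of detection, and the level in the RM group was at least 22.2-fold higher when computed against 3 counts in each RC library (adjusted P by edgeR 1.83e-05). The exact 95% lower limit of the ratio of pooled counts, for counting error only, was 53.6. Because no rat library reached an FPKM of 1, Nos2 did not meet the DEG criteria in rat. In mouse the MC libraries had 0, 0 and 1 counts and the MM libraries 39303, 40795 and 36324 counts (FPKM 444, 473 and 471). The groups were thus apart in every library, with a ratio in CPM of 105870.4 and an exact 95% interval of 19001 to 4181693 that covers counting error only (adjusted P by edgeR 4.71e-82). In the MM libraries Nos2 ranked 66 to 68 by FPKM among all mouse genes and took 0.204% ± 0.00701 (SD, n = 3) of all counts, whereas in the RM libraries it ranked 12172 to 12679. The tables of the species were normalized separately and rest on different gene models, so levels set across them are given side by side and not tested. Mouse Nos2 (ENSMUSG00000020826) lies on chromosome 11, 78920787 to 78960254, plus strand, of GRCm38, with 29 merged exons and no exon shared with another gene. The genes nearest to Nos2 in pattern over the 12 libraries, by Pearson correlation of log2(FPKM + 1), were Smtnl2 (r = 0.9996), Nod2 (r = 0.9988) and Lrig1 (r = 0.9975). Each point of these correlations is a library, the MM libraries set apart all of these genes, and 32 of 10911 genes had r over 0.99.

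The other synthases gave few reads. Nos1, the neuronal enzyme, had 2 counts in RC and 3 in RM cells, and fell in mouse from 110 counts in MC to 7 in MM cells (log2 fold change -3.77 ± 0.460 SE, adjusted P by edgeR 4.01e-11). Nos3, the endothelial enzyme, had 11 and 7 counts in RC and RM cells and 9 and 9 in MC and MM cells, too few to be tested. Nos2 therefore held nearly all synthase reads in MM cells.

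Gch1, the first and rate-limiting step of tetrahydrobiopterin synthesis, rose in both species. The FPKM was 2.90, 2.56 and 3.20 in the RC libraries and 11.2, 8.18 and 9.18 in the RM libraries. In mouse it was 0.766, 0.636 and 0.633 in the MC libraries and 9.55, 8.42 and 9.69 in the MM libraries. The groups did not overlap in either species, and the rise was 3.26-fold in rat (log2 fold change 1.70 ± 0.156 SE, adjusted P by edgeR 1.88e-05) and 16.5-fold in mouse (4.04 ± 0.0888, 1.43e-46). Side by side, the mean FPKM was 2.88 ± 0.320 in RC and 0.678 ± 0.0761 in MC cells, and 9.52 ± 1.54 in RM and 9.22 ± 0.699 in MM cells (SD, n = 3). Mouse Gch1 lies on chromosome 14, 47153895 to 47189413, minus strand, of GRCm38.

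The promoters of the genes were read from RefSeq for rat, 250 bases before to 50 after each start, in the build GRCr8, which is not the build of the counts. Of the 10 genes 6 matched (Gch1, Ass1, Asl, Slc7a1, Odc1 and Ddah1), and Nos2, Arg1, Arg2 and Slc7a2 did not. The windows were searched on both strands for the NF-kB motif, the E-box CACGTG, the cAMP response element TGACGTCA and the interferon-activated GAS motif TTCNNNGAA, which were held by 4.16%, 6.65%, 1.91% and 8.68% of 27457 rat promoters. The single match among the 6 windows was to NF-kB, the factor through which IL-1β acts on many inflammatory genes, in the window of Gch1 at base -28 from the start, and it overlaps no match to another motif. The windows of Ass1 and Ddah1, which like Gch1 rose in both species, held no match, nor did those of Asl, Slc7a1 and Odc1. The window of Gch1 is printed with its match in capitals, beside that of Ddah1 as a gene with the same directions and no match. A match is a description of letters and not a shown binding site.
Gch1 (GRCr8, chr15:22917363-22917662, minus strand): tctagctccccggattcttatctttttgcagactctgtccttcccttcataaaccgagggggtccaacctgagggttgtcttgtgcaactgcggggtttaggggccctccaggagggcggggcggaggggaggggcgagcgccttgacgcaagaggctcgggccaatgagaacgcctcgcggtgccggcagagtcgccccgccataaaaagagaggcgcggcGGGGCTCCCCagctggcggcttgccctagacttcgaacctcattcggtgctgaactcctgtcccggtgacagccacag
Ddah1 (GRCr8, chr2:237327562-237327861, plus strand): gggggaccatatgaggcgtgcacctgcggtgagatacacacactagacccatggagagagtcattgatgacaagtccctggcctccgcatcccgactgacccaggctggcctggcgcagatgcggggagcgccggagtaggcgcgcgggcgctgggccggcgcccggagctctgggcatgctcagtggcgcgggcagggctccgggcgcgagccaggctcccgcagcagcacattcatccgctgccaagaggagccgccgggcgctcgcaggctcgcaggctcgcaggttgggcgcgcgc
These windows had a GC content of 63.3% and 71.0%.

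Ass1 and Asl, which regenerate arginine from citrulline, moved less than Nos2 and Gch1. Ass1 had FPKM of 4.02, 4.98 and 4.25 in the RC libraries and 10.8, 9.15 and 9.31 in the RM libraries. All RM libraries were above all RC libraries, a 2.18-fold rise (log2 fold change 1.13 ± 0.117 SE, adjusted P by edgeR 4.4e-05). In mouse Ass1 was already high without IL-1β, with FPKM of 57.2, 59.6 and 54.0 in the MC libraries, the highest control level of the 10 genes, and 66.3, 66.5 and 61.2 in the MM libraries. This was a rise of 0.46 ± 0.0389 on the log2 scale (adjusted P by edgeR 7.53e-17), under the size the DEG criteria ask for. Asl had FPKM of 11.2, 12.5 and 11.7 in the RC libraries and 12, 11.3 and 11.6 in the RM libraries. The rat groups overlapped (log2 fold change -0.04 ± 0.0843, adjusted P by edgeR 0.759). In mouse Asl went from 5.89, 6.38 and 6.39 in the MC libraries to 7.02, 6.67 and 7.32 in the MM libraries, a rise of 0.45 ± 0.065 on the log2 scale (adjusted P by edgeR 9.15e-09). The mouse changes of Ass1, Asl and Slc7a1 depend on the scaling in their size, because scaling by library size alone puts the median over all mouse genes at -0.29 on the log2 scale in place of -0.02. By library size alone the log2 fold changes were 0.19 for Ass1 and 0.17 for Asl, both still called (adjusted P by edgeR 1.58e-05 and 0.0155). Mouse Ass1 lies on chromosome 2, 31470207 to 31520672, plus strand, and Asl on chromosome 5, 130011258 to 130029247, minus strand, of GRCm38.

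**Figure D2:**
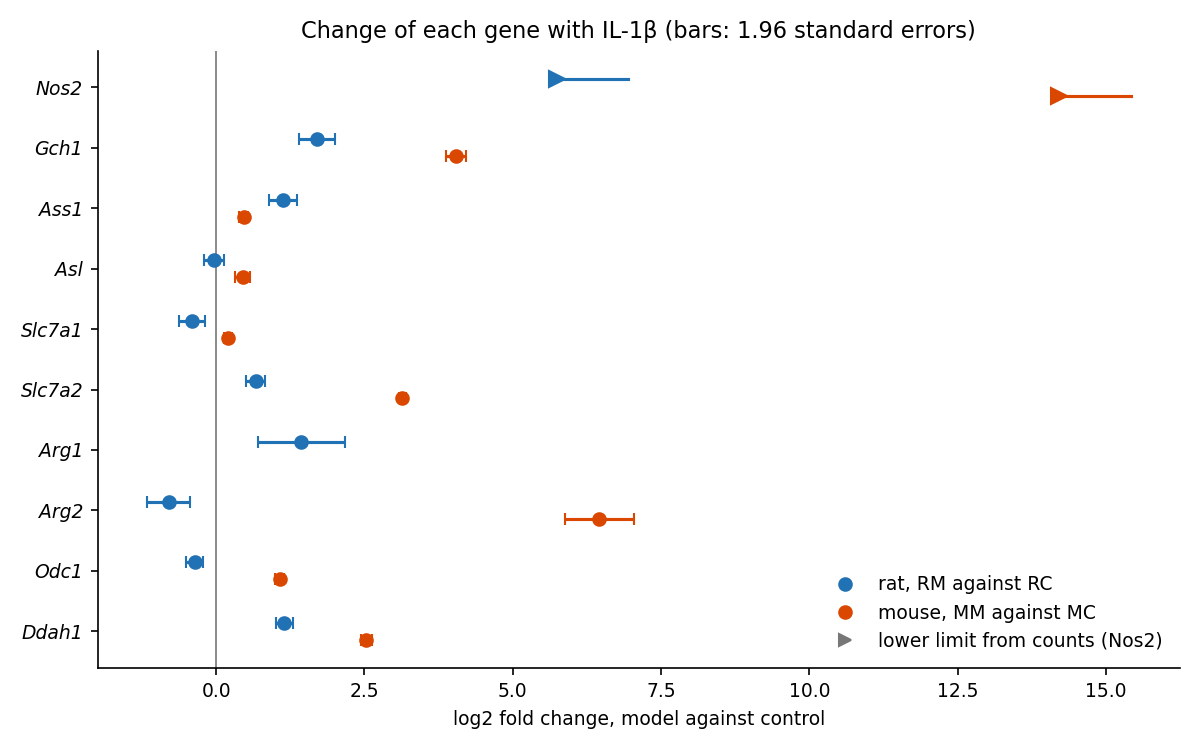
Log2 fold change of each gene in the model against the control group in rat and in mouse, with bars of 1.96 standard errors and, for Nos2, arrowheads at the exact 95% lower limits of the ratio of pooled counts. Arg2 and Odc1 lie on opposite sides of 0 in the species, at -0.80 and -0.36 in rat and at 6.46 and 1.08 in mouse.

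The arginine transporters Slc7a1 and Slc7a2 responded unequally. Slc7a2, the cytokine-inducible transporter, had FPKM of 24.2, 22.6 and 20.9 in the RC libraries and 35.0, 37.2 and 36.5 in the RM libraries. Every RM library was above every RC library, with a rise of 0.67 ± 0.0782 on the log2 scale (adjusted P by edgeR 0.000105). In mouse Slc7a2 went from 48.8, 51.5 and 48.9 in the MC libraries to 374, 361 and 347 in the MM libraries. This was 8.80-fold (log2 fold change 3.14 ± 0.0284, adjusted P by edgeR 3.27e-68), and Slc7a2 then took 0.330% ± 0.0124 (SD, n = 3) of all counts and ranked 78 to 80 by FPKM. Slc7a1, the widely expressed transporter, had FPKM of 16.3, 19.5 and 15.7 in the RC libraries and 11.3, 13.7 and 14.3 in the RM libraries. It fell by 0.40 on the log2 scale (± 0.11 SE, adjusted P by edgeR 0.0168), and without RM replicate 1 the adjusted P was 0.0749. In mouse the FPKM of Slc7a1 overlapped, with 14.4, 14.3 and 15 in the MC libraries and 14.5, 13.9 and 12.9 in the MM libraries, and its direction depended on the scaling, with a log2 fold change of 0.20 ± 0.0376 by TMM (adjusted P by edgeR 3.3e-06) and of -0.08 by library size alone (0.0491). Slc7a2 lies on chromosome 8, 40862396 to 40922308, plus strand, and Slc7a1 on chromosome 5, 148327410 to 148399904, minus strand, of GRCm38. Slc7a2 shares 635 exon bases with Gm26584, a long non-coding RNA gene on the opposite strand that had 65 counts in MC and 414 in MM cells.

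The balance between the transporters shifted towards Slc7a2 in both species. Slc7a2 made up 59.8%, 53.7% and 57.1% of the FPKM of the pair in the RC libraries and 75.6%, 73.0% and 71.8% in the RM libraries. Per counts, not divided by length, it was the smaller of the pair in the RC libraries, with 37.3%, 31.7% and 34.7%, and held 55.4%, 52.0% and 50.5% in the RM libraries. Among the MC libraries it made up 77.3%, 78.3% and 76.6%, and in the MM libraries 96.3%, 96.3% and 96.4% of the FPKM. The groups did not overlap, and the shift was 16.6 percentage points in rat and 19.0 in mouse. The exact two-sided permutation test gave P = 0.1 in each species, the smallest value that 3 libraries against 3 allow. No difference in this shift between the species was tested.

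**Figure D3:**
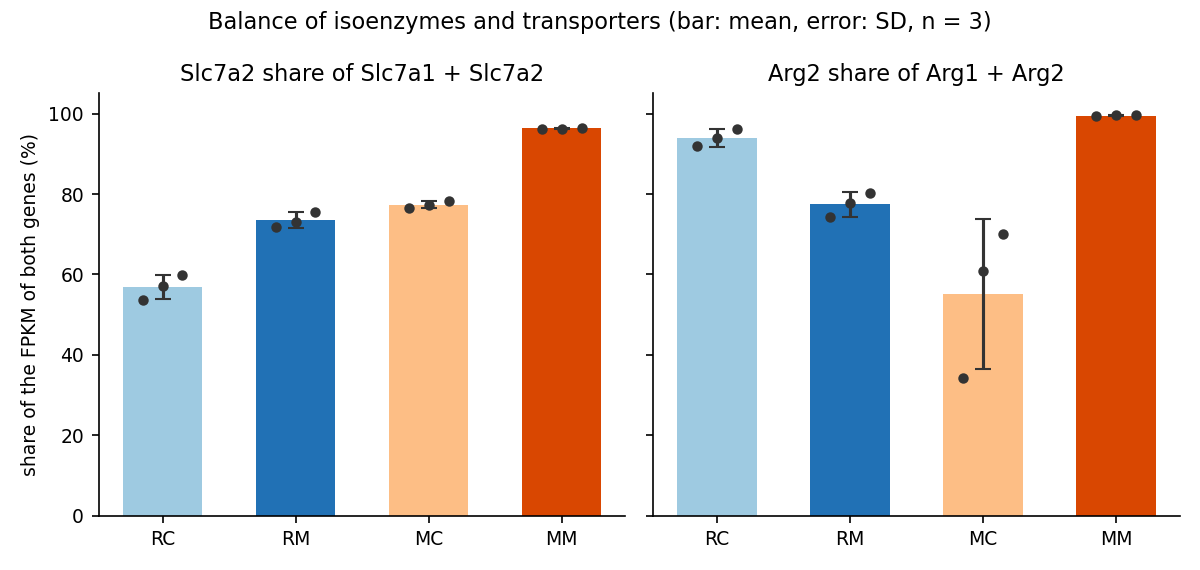
Share of Slc7a2 in the FPKM of Slc7a1 and Slc7a2, and of Arg2 in the FPKM of Arg1 and Arg2, in percent for each library (points) with the mean and SD of 3 libraries per group. The share of Slc7a2 is higher in both model groups, and that of Arg2 is lower in the RM group and higher in the MM group.

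The arginases moved in opposite directions in rat, and Arg2 moved in opposite directions in the species. Arg2, the mitochondrial arginase, had FPKM of 4.47, 4.99 and 3.57 in the RC libraries and 2.95, 2.10 and 2.54 in the RM libraries. All RM libraries were below all RC libraries, a fall by 0.80 on the log2 scale (± 0.187 SE, adjusted P by edgeR 0.00759). In mouse Arg2 had 2, 3 and 1 counts in the MC libraries and 185, 178 and 147 counts in the MM libraries (FPKM 6.46, 6.37 and 5.89). The groups were far apart, with a ratio in CPM of 77.3 (exact 95% interval 35.3 to 212 for counting error) and a fitted log2 fold change of 6.46 ± 0.296 (adjusted P by edgeR 1.71e-29), which rests on 6 counts in MC cells. Arg1, the cytosolic arginase of the liver urea cycle, had 11, 7 and 10 counts in the RC libraries and 31, 20 and 26 in the RM libraries (FPKM 0.295, 0.201 and 0.316, then 1.03, 0.515 and 0.725). The rat groups did not overlap, and Arg1 was 2.71-fold higher (log2 fold change 1.44 ± 0.377, adjusted P by edgeR 0.0134). This call was lost without RC replicate 2 (adjusted P by edgeR 0.0534) and without RM replicate 1 (0.0666). In mouse Arg1 had 6, 2 and 1 counts in the MC libraries and 2, 1 and 1 in the MM libraries, and no difference was detectable at this depth, with a ratio in CPM of 0.404 (exact 95% interval 0.0909 to 1.45).

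Arg2 held most of the arginase FPKM in both control and model cells of rat, with 93.8%, 96.1% and 91.9% in the RC libraries and 74.2%, 80.3% and 77.8% in the RM libraries. The share fell by 16.5 percentage points. In mouse it was 34.2%, 70.1% and 60.9% in the MC libraries, on 6 counts of Arg2 and 9 of Arg1 in all, and 99.3%, 99.6% and 99.6% in the MM libraries. The groups did not overlap in either species, and the exact two-sided permutation test gave P = 0.1 in each. Mouse Arg2 lies on chromosome 12, 79130777 to 79156301, plus strand, of GRCm38 and shares 285 exon bases with Vti1b on the opposite strand. Vti1b had 3196 counts in MC and 3317 in MM cells while Arg2 had 6 and 510. Arg2 also shares 116 exon bases with the antisense gene Gm48780, which had 2 and 12 counts. The library kit is not stated to keep the strand, so reads from these shared bases cannot be assigned with certainty. Mouse Arg1 lies on chromosome 10, 24915221 to 24927484, minus strand.

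Odc1, the entry to polyamine synthesis, was the most highly expressed of the genes per length in both rat groups and fell there, while it rose in mouse. The FPKM was 50.7, 57.0 and 58.5 in the RC libraries and 44.2, 42.6 and 44.3 in the RM libraries. The RM libraries were all lower, with a fall by 0.36 on the log2 scale (± 0.0733 SE, adjusted P by edgeR 0.00374). In the MC libraries it was 33.8, 33.6 and 33.8 and in the MM libraries 61.7, 59.1 and 54.9, all higher than in the MC group. The rise was 2.11-fold (log2 fold change 1.08 ± 0.0382, adjusted P by edgeR 4.76e-35). Mouse Odc1 lies on chromosome 12, 17544794 to 17551505, plus strand, of GRCm38.

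Ddah1, which removes the methylarginine inhibitor of nitric oxide synthases, rose in both species. The FPKM was 8.52, 8.75 and 8.94 in the RC libraries and 20.9, 18.9 and 19.1 in the RM libraries. In mouse it was 7.88, 7.36 and 7.33 in the MC libraries and 35.4, 36.0 and 36.1 in the MM libraries. The groups were clearly apart in both species, with rises of 2.22-fold in rat (log2 fold change 1.15 ± 0.0756 SE, adjusted P by edgeR 1.67e-06) and 5.77-fold in mouse (2.53 ± 0.0466, 6.95e-51). Mouse Ddah1 lies on chromosome 3, 145758675 to 145894277, plus strand, of GRCm38.

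Ordered by mean FPKM, the RC group had Odc1, Slc7a2, Slc7a1, Asl, Ddah1, Ass1, Arg2, Gch1, Arg1 and Nos2, in which the libraries of Ass1 (4.42 ± 0.498) and Arg2 (4.34 ± 0.721) overlapped and those of all other neighbours did not. In the RM group Ddah1 and Gch1 stood higher in the order, which ran Odc1, Slc7a2, Ddah1, Slc7a1, Asl, Ass1, Gch1, Arg2, Arg1 and Nos2. Overlapping neighbours there were Slc7a1 with Asl, Ass1 with Gch1 and Arg1 with Nos2. The MC group was led by Ass1 and Slc7a2, followed by Odc1, Slc7a1, Ddah1, Asl, Gch1, Arg2, Arg1 and Nos2, with overlap between Arg2 and Arg1. In the MM group Nos2 (463 ± 15.9) moved from the last to the first place, above Slc7a2 (361 ± 13.6), Ass1 (64.7 ± 3.03) and Odc1 (58.5 ± 3.43), of which Ass1 and Odc1 overlapped, and then Ddah1, Slc7a1, Gch1, Asl, Arg2 and Arg1. The summed FPKM of the 10 genes was 128 ± 5.23 in RC, 147 ± 3.02 in RM, 169.5 ± 3.77 in MC and 1019 ± 12.3 in MM cells (SD, n = 3).

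Whether the response differed between the species was tested as the difference of the log2 fold changes (mouse minus rat), in a fit of the 10912 genes tested in both. That fit used a shared estimate of the spread for both species, although the spread was smaller in mouse. All 8 of the 10 genes that could be compared passed at an adjusted P under 0.05, as did 63.8% of all genes in that fit. The signed log2 fold change was higher in mouse for 7 genes, as for 31.4% of all genes, and lower for Ass1, as for 32.3%. A higher value is not always a larger change, as Slc7a1 had -0.40 in rat and 0.20 in mouse. Arg2 had the widest difference (7.28 ± 0.360 SE on the log2 scale, adjusted P by edgeR 1.67e-11), followed by Slc7a2 (2.47 ± 0.0813, 1.11e-13) and Gch1 (2.34 ± 0.191, 1.24e-08). The value of Arg2 rests on 6 counts in MC cells, and in mouse this gene passed the filter only through the MM group. The count of 8 therefore describes the genes and is no test of the set. Odc1, which fell in rat and rose in mouse, differed by 1.43 ± 0.0846 (1.88e-10). Ass1, with control means of 4.42 FPKM in rat and 56.9 in mouse, differed by -0.66 ± 0.117 (0.000107). Nos2 and Arg1 have too few counts in a group for a fitted difference, and the count limits given for each species stand in its place.

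Of the other genes of these pathways, 46 were tested in rat, with 8 higher, 9 lower and 29 not called, and 51 in mouse, with 17 higher, 27 lower and 7 not called. In rat these are 17.4% higher and 19.6% lower, near the 18.3% and 16.8% of all genes, and in mouse 33.3% and 52.9%, beside 37.4% and 37.7%. The counts of single lists are small and are given as descriptions. In mouse the number higher was 10 and the number lower 31 with scaling by library size alone. The genes described here are those with the smallest adjusted P of each list (3 per list, and 2 for tetrahydrobiopterin). In every list these smallest values were those of mouse. The exceptions are Nos1, Nos3, Gatm, Gchfr, Qdpr, Srm, Sms, Amd1 and Paox, which were chosen after their values were seen.

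Among the genes of synthase control and cGMP signalling, through which nitric oxide acts, 2 of 6 tested in rat were higher and 1 lower, and 4 of 11 in mouse were higher and 6 lower. Pde5a, which breaks down cGMP, rose in rat from an FPKM of 1.06 ± 0.139 to 3.13 ± 0.345 (log2 fold change 1.53 ± 0.156 SE, adjusted P by edgeR 3.86e-05). In mouse it fell from 3.62 ± 0.172 to 0.518 ± 0.00641 (-2.52 ± 0.0952, 1.2e-33). Cav1, the caveolin that binds nitric oxide synthase in the membrane, likewise rose in rat by 0.21 (0.0405) and fell in mouse by 1.40 on the log2 scale (4.28e-41). Prkg1, a cGMP-dependent kinase, fell in mouse (-1.71, 1.59e-27).

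In tetrahydrobiopterin synthesis and recycling 3 of 6 genes were higher and 0 lower in rat, and 2 were higher and 4 lower in mouse. The second enzyme after Gch1, Pts, fell in mouse from 3.37 ± 0.143 to 1.26 ± 0.119 FPKM (log2 fold change -1.14 ± 0.101 SE, adjusted P by edgeR 6.23e-16) and stood at -0.36 in rat (0.143). Spr, the last enzyme, rose in mouse by 0.56 (8.36e-13) and had 0.28 in rat (0.312). Among the genes higher in rat were Gchfr (0.92, 0.0166) and Qdpr (0.39, 0.0117), which in mouse had 0.36 (0.0309) and -0.25 (0.0462).

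Of the genes that make and break down methylarginines, 0 of 3 tested passed in rat, while in mouse 1 of 4 was higher and 3 were lower. Ddah2, the relative of Ddah1, fell in mouse from 23.3 ± 1.54 to 8.95 ± 0.412 FPKM (log2 fold change -1.11 ± 0.0763 SE, adjusted P by edgeR 1.65e-20), the opposite of Ddah1. The arginine methyltransferases Prmt3 (-1.01, 5.1e-14) and Prmt1 (-0.18, 0.000126) also fell in mouse. The rat values were -0.13 for Ddah2 (0.778), -0.21 for Prmt3 (0.0758) and -0.03 for Prmt1 (0.808).

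Among the other transporters of basic amino acids and ornithine, 0 of 7 were higher and 5 lower in rat, and 2 of 6 were higher and 3 lower in mouse. Slc7a3, a further cationic transporter, fell in both species, by 0.99 in rat (adjusted P by edgeR 0.00147) and by 1.72 in mouse (1.22e-22) on the log2 scale. Slc3a2, the heavy chain that carries several exchangers to the membrane, fell by 0.44 in rat (0.00255) and rose by 0.55 in mouse (9e-22). Slc7a6, one of its light chains, rose by 0.89 in mouse (5.68e-24) and had 0.08 in rat (0.431).

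In the urea cycle, creatine and agmatine list 1 of 4 tested genes was lower in rat, and 2 of 4 were higher and 1 lower in mouse. The rat gene was Gatm, which makes the precursor of creatine from arginine and fell from 12.4 ± 0.461 to 3.96 ± 0.427 FPKM (log2 fold change -1.66 ± 0.099 SE, adjusted P by edgeR 8.05e-07), with 37 and 35 counts in MC and MM cells. Azin2, an inhibitor of the antizyme that restrains ornithine decarboxylase, rose in mouse from 6.76 ± 0.735 to 15.1 ± 0.554 FPKM (log2 fold change 1.44 ± 0.0606 SE, adjusted P by edgeR 4.06e-31). Gamt, the last step of creatine synthesis, fell in mouse by 1.87 (1.2e-23), and Nags, which makes the activator of the urea cycle, rose from 11 to 101 counts. In rat these genes had 64 and 65 counts (Azin2), a log2 fold change of -0.21 (Gamt, adjusted P by edgeR 0.314) and 59 and 61 counts (Nags), and were not called.

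The genes that turn ornithine and glutamate into proline, an amino acid of collagen, gave 1 higher and 2 lower of 7 in rat, and 1 higher and 4 lower of 7 in mouse. Pycr1, the last enzyme of proline synthesis, fell in both species, from 27.5 ± 4.04 to 15 ± 3.10 FPKM in rat (log2 fold change -0.89 ± 0.149 SE, adjusted P by edgeR 0.00108) and from 13.3 ± 0.165 to 1.50 ± 0.144 in mouse (-2.87 ± 0.0835, 9.06e-40). Oat, which starts the route from ornithine, also fell in both, by 0.37 in rat (0.00226) and by 0.71 in mouse (5.78e-27). Aldh18a1, which starts the route from glutamate, fell in mouse by 0.75 (3.57e-27) and had 52 and 78 counts in the rat groups (adjusted P by edgeR 0.277).

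The polyamine list gave 2 of 13 higher and 0 lower in rat and 5 of 13 higher and 6 lower in mouse. Those with the smallest adjusted P belong to breakdown and transport of polyamines, and these rose in mouse. Among the 6 lower in mouse were the synthesis genes Srm (log2 fold change -0.87, adjusted P by edgeR 2.76e-22), Sms (-0.75, 1.12e-09) and Amd1 (-0.15, 0.0071). Paox, a further gene of breakdown, was also lower there (-1.24, 6.35e-16). In rat Amd1 was higher (0.31, 0.0113), and Srm, Sms and Paox were not called. Smox, spermine oxidase, rose in mouse from 4.03 ± 0.238 to 52.5 ± 1.39 FPKM (log2 fold change 3.98 ± 0.0502 SE, adjusted P by edgeR 3.83e-60). Sat1, the acetyltransferase that marks polyamines for export or oxidation, rose in mouse from 31.6 ± 1.29 to 166 ± 1.70 (2.67 ± 0.0347, 2.3e-59) and in rat from 160.5 ± 12.2 to 210.4 ± 19.1 (0.37 ± 0.0857, 0.00687). Atp13a3, a polyamine transporter, rose in mouse by 0.86 (1.77e-31). In rat the log2 fold change was 0.43 for Smox (0.212) and 0.45 for Atp13a3 (0.0874).

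**Figure D4:**
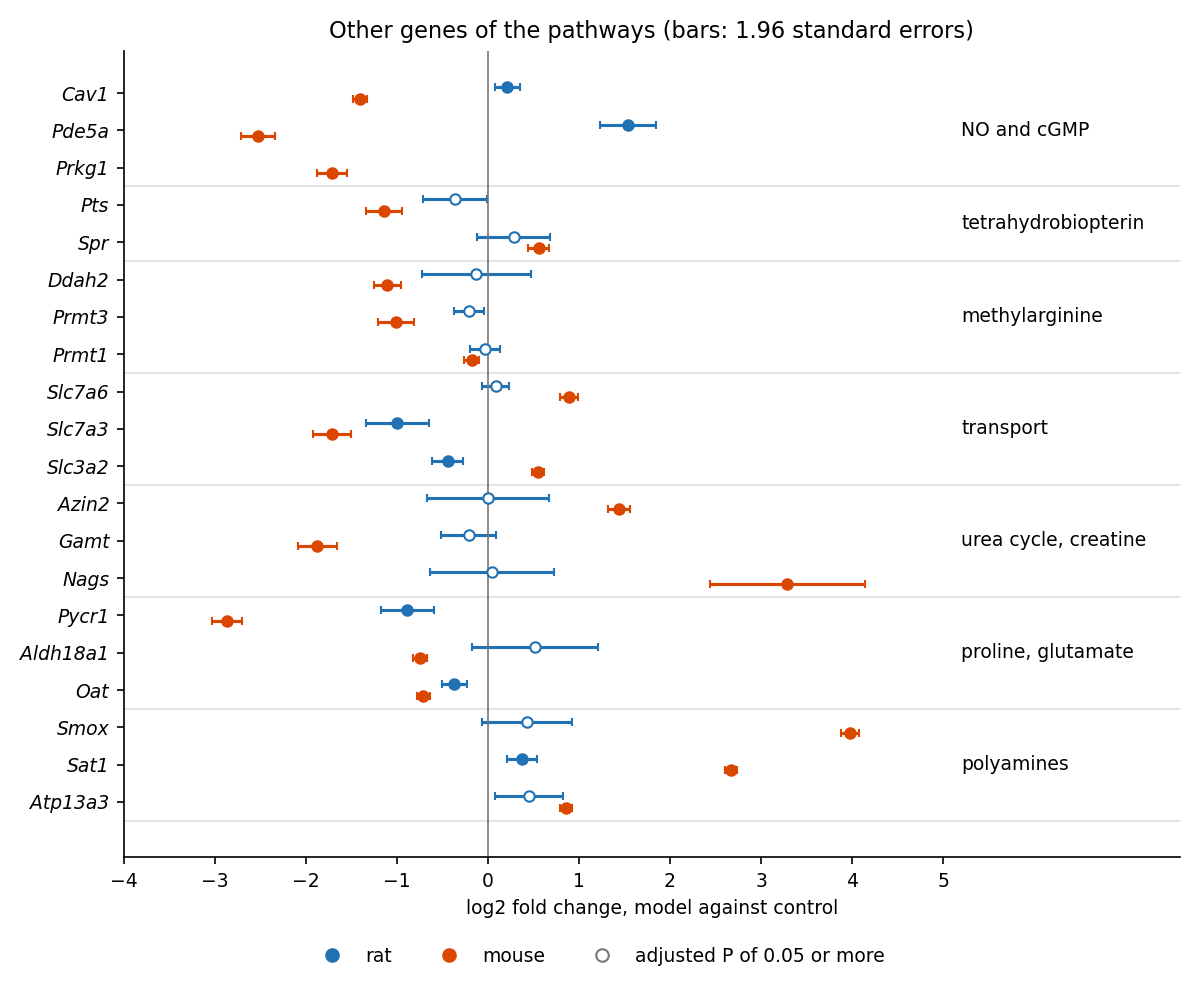
Log2 fold changes, model against control, of the genes with the smallest adjusted P of each pathway list in rat and in mouse (bars: 1.96 standard errors; open points: adjusted P of 0.05 or more). Smox reaches 3.98 and Pycr1 -2.87 in mouse, and Pde5a lies at 1.53 in rat and -2.52 in mouse.

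Nos2, Arg1 and several of the other genes are also expressed by macrophages, so markers of other cells were read beside them. In rat 7 of 12 macrophage and leukocyte markers were tested, with 3 higher and 2 lower, and their summed FPKM went from 20.7 to 25.2 in the RC libraries to 32.9 to 38.2 in the RM libraries. In mouse 4 of 12 were tested and all 4 were higher (Cd68, Cd14, Csf1r and Lyz2), with sums of 7.49 to 8.38 in the MC libraries and 34.8 to 37.6 in the MM libraries. In MC and MM cells Cd68 had 230 and 593 counts, and Cd14 had 153 and 2156. Csf1r had 104 and 153, and Lyz2 had 108 and 198. Among the markers not tested in mouse, Itgam had 0 counts in all libraries. Adgre1 had 1 count in MC and 0 in MM cells, and Ptprc had 3 and 1. Also in mouse, Aif1 had 2 and 1 counts, Tyrobp 3 and 2, Fcer1g 20 and 4, C1qa 0 and 2 and Cd74 6 and 38. In rat the higher markers were Cd68 (342 to 654 counts), Cd14 (1450 to 2706) and Cd74 (9 to 33), and the lower ones Csf1r (184 to 81) and Lyz2 (288 to 159). The other rat markers had 20 and 16 counts for Ptprc, 18 and 23 for Adgre1, 12 and 39 for C1qa, 8 and 1 for Aif1, 32 and 26 for Tyrobp and 48 and 58 for Fcer1g in RC and RM cells. Fibroblast markers gave 2 higher and 2 lower of 7 in rat and 3 higher and 4 lower of 7 in mouse, and the summed FPKM of endothelial markers stayed under 1 in every library. Proliferation genes were all 7 higher in rat, beside 18.3% of all genes, and 6 of 7 were lower in mouse, beside 37.7%. The remaining gene, Pcna, was called higher in mouse (log2 fold change 0.21 by TMM, adjusted P by edgeR 5.08e-06). Its mean FPKM was 43.8 in MC and 41.8 in MM cells. Odc1 was lower in rat and higher in mouse. The part of these shifts, and of the fall of the chondrocyte markers, in the changes of the 10 genes was not tested.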

How the data were processed

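RNA-seq of 12 chondrocyte samples was analysed, 3 per group (RC, RM, MC, MM), with groups taken from the sample titles. The authors deposited raw counts per Ensembl gene and FPKM for each species. The submitters' processing notes name HISAT2, HTSeq 0.11.2 and the builds GRCm38 and Rnor_6.0. The deposited FPKM equalled the count divided by a whole-number gene length and the library total within 0.1% for 100% of 78300 rat and 85790 mouse values. A length could be implied for 14360 mouse genes with an entry in GENCODE M21, but not for Arg1. For 13856 of these (96.5%) it was the merged exon length within 1 base. Rat coordinates were not used.

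Tests on counts used edgeR 4.0.16 under R 4.3.3 (filterByExpr, TMM, glmQLFit, glmQLFTest, Benjamini-Hochberg), by species and, for the difference between species, in a single fit over genes matched by symbol. DESeq2 1.42.0, limma 3.58.1 on log2(FPKM + 1) and log2(FPKM + 0.1), other scalings, no filter, a replicate block and leaving out each library were alternatives. On simulated data with 200 genes changed by 1.5 on the log2 scale, edgeR recovered 96.5% in rat (8.1% of calls false, 13303 genes) and 98.5% in mouse (2.48%, 14668 genes). For the difference between species it recovered 97.55% of 326 genes (8.09% of calls false). The false shares in rat and for the difference were above the share of 0.05 that the call threshold aims at. DESeq2 on the same simulated data had 12.33% of calls false in rat, 0.51% in mouse and 10.92% for the difference. Far fewer genes changed there than were called in the data (35.1% in rat and 75% in mouse). The simulation therefore cannot show how the scaling behaves in these data. For the 10 genes, a fold against a group of 3 or fewer counts was given as a limit or with an exact 95% interval. All 10 genes are named, and of each pathway list the 3 whose adjusted P was smallest in rat or mouse. 1 gene under this rule is not reported here. Likeness to Nos2 names 3 more. The genes and lists were chosen with earlier results of these data known.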

Additional observations from a re-analysis of the deposited data

Results flagged for a closer look

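The change with IL-1β differed between the species for 8 genes, by the interaction test of edgeR over 10912 genes (change in mouse minus change in rat, on the log2 scale, 3 libraries in each group). The differences were 7.28 for Arg2, 2.47 for Slc7a2, 2.34 for Gch1, 1.43 for Odc1, 1.38 for Ddah1 (adjusted P 2.91e-10), 0.60 for Slc7a1 (0.00043), 0.49 for Asl (0.000561) and -0.66 for Ass1. Of these genes, Arg2, Odc1 and Slc7a1 fell in rat and were higher in mouse, although the mouse value of Slc7a1 changed sign with the scaling. Asl alone of the 8 lost its call in an alternative, with 0.19 by library size alone (adjusted P 0.108). As 63.8% of all genes in the fit differed, a difference is common in these data. The value of Arg2 rests on 6 counts in MC cells, and in mouse this gene passed the filter only through the MM group.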

How the results depend on the processing

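The direction and the call of the 10 genes, where fitted, held under no filter, DESeq2, RLE scaling, limma and the replicate block except where named here. Pathway genes were recounted under the scalings, no filter and the DEG criteria, and those lower in mouse went from 27 to 26 by RLE and 25 without a filter. By library size alone 1 of the 10 genes was lower in mouse (Slc7a1, -0.0788, adjusted P 0.0491) against 0 by TMM, 10 pathway genes were higher in mouse against 17, and Azin2 in rat had 0.0142 (adjusted P 0.98). Slc7a1 in mouse was also -0.0758 by limma on log2(FPKM + 1) (adjusted P 0.161) and -0.0806 on log2(FPKM + 0.1) (0.16). By the DEG criteria 0 of the 10 genes were down in rat against 3 called lower, 2 pathway genes were up against 8 and 3 down against 9, and in mouse 5 were up against 17 and 13 down against 27, as these criteria ask for a minimum size. Leaving out single libraries, Asl in rat ran from -0.0902 to 3e-04 (adjusted P up to 0.999). Those fits gave 5 to 6 of the 10 genes higher and 2 to 3 lower in rat, and 9 higher and 0 lower in mouse. Same-numbered libraries did not deviate together (r of -0.0977 to 0.0849 in rat and 0.0012 to 0.0149 in mouse), so the numbers are not taken as pairs. The fit with the replicate block called 6 higher and 3 lower in rat, 9 and 0 in mouse and 7 and 1 for the difference between species, as without it, and 4534 of all rat genes against 4667. Depth limits what can be said of Arg1 in mouse and of Nos2 in the controls.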
